A study of Saccharomyces cerevisiae with 90 samples.

Results

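The comparison described here set yeast that carried a point-mutant IRA1 on a plasmid (ira1RA) against yeast that lacked IRA1 and carried the empty plasmid (ira1). It rests on 4 of the 90 arrays of the series, 2 for each strain, chosen by their titles in the table of cells grown in synthetic complete (SC) medium. That table holds 20 Affymetrix arrays, and the intensities of 5560 genes were compared. Both strains were MATa/alpha diploids with the genomic locus replaced on each chromosome (ira1::HIS3/ira1::LEU2), and both were homozygous for ura3-52, for leu2::hisG and for his3::hisG. The ira1 strain held pRS316, a low-copy centromeric plasmid marked with URA3. The ira1RA strain held pRS316-IRA1RA, and its label describes a mutant in which the active arginine is replaced by alanine. The wild type (4 arrays), used as the reference level, was a MATa/alpha diploid homozygous for ura3-52 with pRS316, so it lacked the HIS3 and LEU2 disruptions that ira1 and ira1RA share. The ira2 strain (2 arrays) had the ira1 genotype with ira2::HIS3/ira2::LEU2 in place of the ira1 alleles. Strains with RAS2V19, labelled dominant-active, or RAS2A22, labelled dominant-negative, carried that allele on pRS316 in the wild-type genotype (2 arrays each). The other 6 arrays came from ras1::HIS3/ras1::HIS3 diploids that also lacked RAS2 and PDE2 on both homologues. These were homozygous for ura3-52, leu2::hisG and his3::hisG and TRP1+/trp1::hisG, and were given 0, 0.5, 1 or 2 mM cyclic AMP (cAMP), the 0 mM strain with pRS315. The labels do not name the promoter of the plasmid allele, its copy number, or whether a strain's 2 arrays came from separate cultures. The p-values therefore measure only the spread between arrays of the same group, part of which may be technical. That spread was estimated in a fit to all 20 SC arrays, not from the 4 compared arrays alone.

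Ira1 and its close relative Ira2 are GTPase-activating proteins for Ras. Such a protein places an arginine in the active site of Ras and speeds the hydrolysis of GTP, which turns Ras off. In budding yeast, Ras bound to GTP stimulates adenylate cyclase, and cAMP then frees the catalytic subunits of protein kinase A. This kinase favours growth, ribosome production and fermentation, and it holds back the transcription factors Msn2 and Msn4, which drive general stress genes. The comparison asks how mRNA levels differ between cells with no Ira1 and cells with an Ira1 whose catalytic arginine is changed.

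Array medians in the SC table lay between 28 and 30 intensity units. The lowest deposited value was 1, and values at 1 were treated as under the floor of the measurement. They made up 21.5 and 19.5% of probes in the ira1 arrays and 17.4 and 17.2% in the ira1RA arrays. Of the 5560 genes, 3664 had no value at 1 in these 4 arrays. Replicates differed by a median of 0.31 on the log2 scale in ira1 and 0.28 in ira1RA over genes of mean intensity above 50. The same measure was 0.37 in ira2, 0.32 in RAS2V19 and 0.15 in RAS2A22. In the wild type it was 0.34 between arrays 1 and 2 and 0.13 between arrays 3 and 4, but 0.53 to 0.57 between an array of the first pair and one of the second, so these pairs stood apart. The Spearman correlation over all probes was 0.812 between the ira1 arrays and 0.875 between the ira1RA arrays, and 0.827 to 0.861 between arrays of the 2 strains. The RAS2A22 arrays held the same value above 1 for 1337 of 6178 probes, while other replicate pairs shared 62 to 271. Genes specific to a cells or to alpha cells, which MATa/alpha diploids repress, reached at most 33 in the ira1 arrays and 61 in the ira1RA arrays, and haploid-specific genes at most 22 and 36. Of the latter, HO and NEJ1 were at 1 in all 4 arrays.

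IRA1 transcript was close to the floor in the deletion strain and was measured in the strain with the plasmid allele. It read 5 and 1 in the ira1 arrays, 24 and 40 in the ira1RA arrays, and 65, 51, 51 and 26 in the wild-type arrays. The ira1 and ira1RA arrays did not overlap, and ira1RA lay within the wild-type range at its upper array and just under it at its lower array. IRA1 passed the test between ira1RA and ira1 (limma, Benjamini-Hochberg adjusted p = 0.0445) and between ira1 and the wild type (adjusted p = 0.00426). Its fold is not given, because 1 of the ira1 values is under the floor. Against the wild type, the ira1RA level differed by -0.55 ± 0.65 on the log2 scale (SE, adjusted p = 0.814). The IRA1 call was lost in 10 of 15 alternatives. A probe for IRA1 reads the point mutant and the wild-type transcript alike.

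IRA2, the gene of the other GTPase-activating protein, read 20 and 13 in ira1 and 26 and 21 in ira1RA, with wild-type arrays from 1 to 25 (adjusted p = 1 between ira1RA and ira1). The ira2 arrays read 1 and 1 for it. URA3, the plasmid marker, was alike in the strains compared, at 291 and 239 in ira1 and 260 and 245 in ira1RA. Wild-type arrays 1 and 2 read 835 and 1199 for URA3, but arrays 3 and 4 read 61 and 51, close to the cAMP strains, whose genotypes list no URA3 plasmid (31 to 57). HIS3, used to disrupt one ira1 copy, read 84 and 27 in ira1 and 108 and 71 in ira1RA. LEU2, used for the other copy, read 557 and 554 in ira1 and 664 and 618 in ira1RA. Neither disruption marker passed the test (adjusted p = 0.782 for HIS3 and 0.87 for LEU2).

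**Figure D1:**
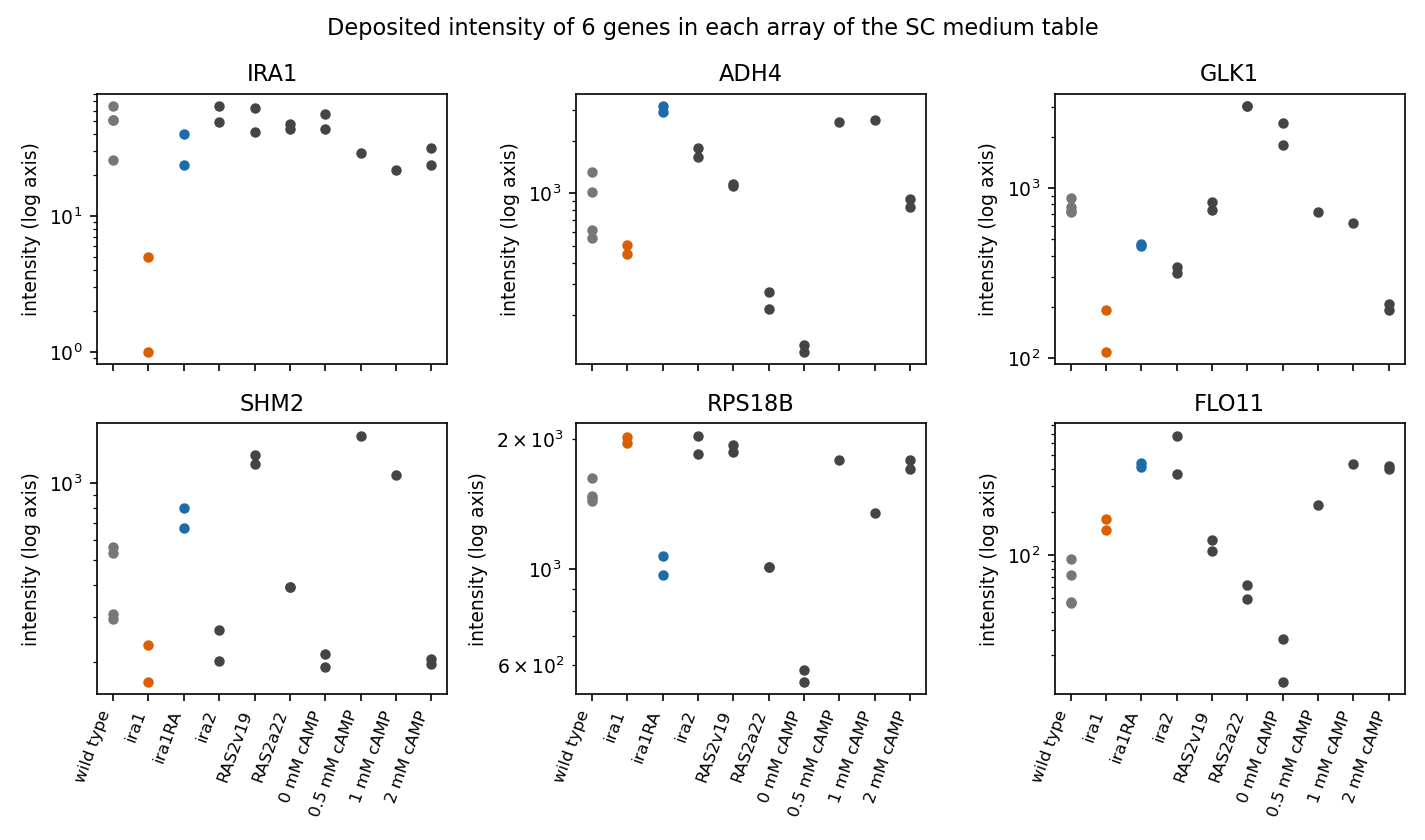
Deposited intensity (log axis) of IRA1, ADH4, GLK1, SHM2, RPS18B and FLO11 in each array of the SC medium table, by strain. One point is 1 array, with ira1 in orange and ira1RA in blue. IRA1 is at 5 and 1 in the ira1 arrays and at 22 or more in the arrays of the other strains.

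Between ira1RA and ira1, 12 of 5560 genes were called higher (0.216%) and 3 lower (0.0540%) at an adjusted p under 0.05. In these bulk cultures a change in every cell and a change in the share of cells cannot be told apart. Without adjustment, 320 genes had a higher and 207 a lower level at p under 0.05. Arrays of the 2 strains did not overlap for 1059 genes higher in ira1RA (19.0%) and 937 lower (16.9%). For the 15 called genes, both ira1 arrays lay below all wild-type arrays in 10 (9.98% of all genes) and above them in 2 (6.78%). In 3 the ira1 arrays overlapped the wild type. Both ira1RA arrays lay below all wild-type arrays in 4 (9.53% of all genes) and above them in 7 (7.30%). In 4 the ira1RA arrays overlapped the wild type. These genes were picked by their difference between ira1RA and ira1, so their place against the wild type is partly set by that choice. The counts of called genes differed with the arrays used. They were 33 higher and 14 lower without the wild-type arrays, 7 and 1 without the RAS2A22 arrays, 1 and 0 with only the 4 arrays compared, 64 and 3 without ira1 array 1, 30 and 1 without ira1 array 2, 6 and 29 without ira1RA array 1, and 6 and 2 without ira1RA array 2. With the values as deposited, without scaling, 16 genes were called higher and 7 lower.

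The genes with the largest rise among those called included 3 that are known to be induced when zinc is scarce. YOR387C, a zinc-responsive gene of unknown function, read 116 and 56 in ira1 and 1937 and 1723 in ira1RA. Its level rose 22.7-fold (log2 4.50 ± 0.58, adjusted p = 0.00207), and the wild-type arrays, at 318 to 544, lay between those of the 2 strains. VEL1, a highly similar gene, read 22 and 43 in ira1 and 567 and 679 in ira1RA. The rise was 20.2-fold (log2 4.33 ± 0.72, adjusted p = 0.0127). Wild-type arrays read 35 to 175 for VEL1, so here ira1 overlapped the wild type and ira1RA stood above it. Probes for such similar copies can bind the transcript of either, so the pair may not be independent. ADH4, an alcohol dehydrogenase made in low zinc, read 506 and 449 in ira1 and 2936 and 3178 in ira1RA. It rose 6.41-fold (log2 2.68 ± 0.31, adjusted p = 0.00108) and passed in all 16 alternatives. Wild-type arrays read 553 to 1322 for ADH4, above both ira1 arrays and below both ira1RA arrays. Against the wild type, ira1RA was higher by 1.91 on the log2 scale for ADH4 (adjusted p = 0.00274), while ira1 differed by -0.77 (adjusted p = 0.213).

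Called genes of glucose use were GLK1, ENO1 and TDH1. GLK1 encodes glucokinase, which phosphorylates glucose, and it is also a target of Msn2 and Msn4. It read 192 and 109 in ira1, 469 and 453 in ira1RA and 722 to 878 in the wild type, 3 ranges that did not overlap. The rise from ira1 to ira1RA was 3.19-fold (log2 1.67 ± 0.23, adjusted p = 0.00279). Against the wild type, GLK1 fell by 2.41 on the log2 scale in ira1 (adjusted p = 7.6e-06) and differed by -0.73 in ira1RA (adjusted p = 0.115). ENO1, one of the enolase isozymes, read 784 and 660 in ira1 and 1919 and 1861 in ira1RA, and wild-type arrays (1063 to 1551) lay between. It rose 2.63-fold (log2 1.39 ± 0.21, adjusted p = 0.00536). TDH1, a minor isozyme of glyceraldehyde-3-phosphate dehydrogenase, read 344 and 250 in ira1 and 826 and 685 in ira1RA. That rise was 2.56-fold (log2 1.36 ± 0.27, adjusted p = 0.0445), and ira1RA stood above the wild-type arrays (300 to 511). ENO1 and TDH1 are close in sequence to the abundant ENO2 and to TDH2 and TDH3, so signal from those copies could be shared. None of ENO2, TDH2 and TDH3 passed.

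SHM2 encodes the cytosolic serine hydroxymethyltransferase, which feeds one-carbon units to purine synthesis. It read 233 and 167 in ira1 and 798 and 667 in ira1RA, a 3.70-fold rise (log2 1.89 ± 0.30, adjusted p = 0.00854). Wild-type arrays, at 295 to 563, lay between the strains. PRC1, the vacuolar protease carboxypeptidase Y, read 310 and 283 in ira1 and 729 and 716 in ira1RA. It rose 2.44-fold (log2 1.29 ± 0.24, adjusted p = 0.0385).

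YDL124W and YNL134C, which encode NAD(P)H-dependent reductases, also rose. YDL124W read 50 and 78 in ira1 and 269 and 231 in ira1RA (log2 2.00 ± 0.38, adjusted p = 0.0385). YNL134C read 172 and 219 in ira1 and 486 and 403 in ira1RA (log2 1.19 ± 0.23, adjusted p = 0.0411). MTC7, whose name comes from a screen on telomere capping, read 9 and 15 in ira1 and 243 and 271 in ira1RA. It rose 22.1-fold (log2 4.47 ± 0.80, adjusted p = 0.0339), from a level near the floor, and 3 of the 4 wild-type arrays read 182 or more while array 4 read 38. THI7, a thiamine transporter gene, came next by p but did not pass, at 118 and 70 in ira1 and 308 and 270 in ira1RA (log2 1.67 ± 0.34, adjusted p = 0.0515).

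**Figure D2:**
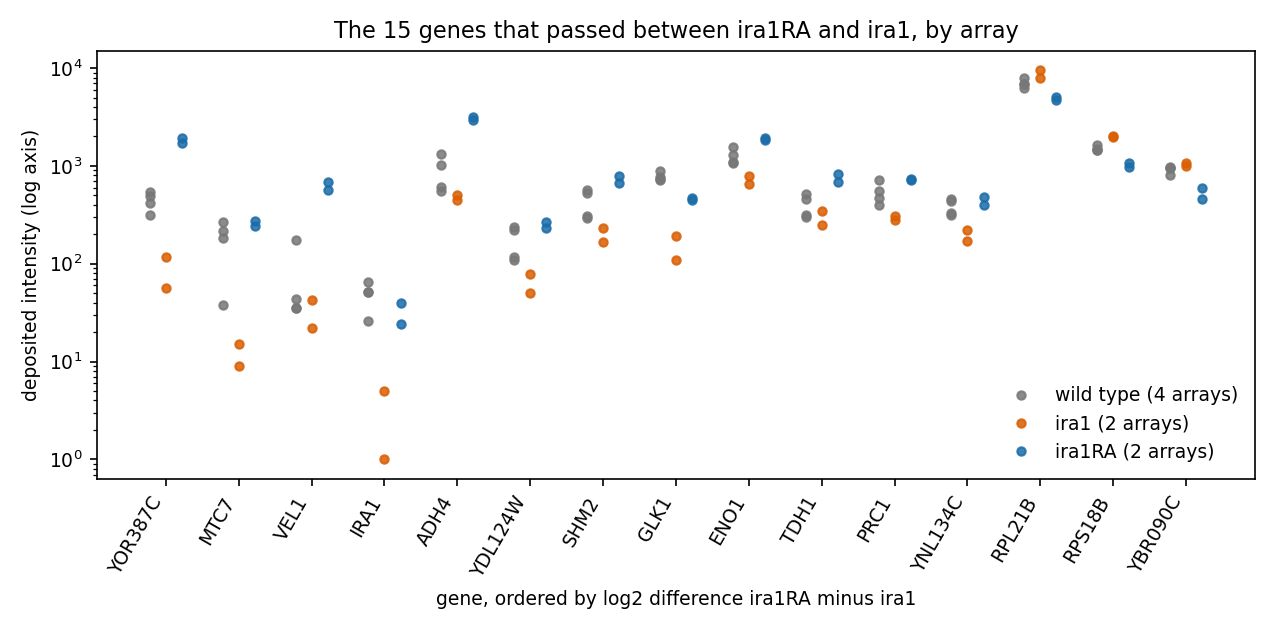
Deposited intensity (log axis) of the 15 genes that passed between ira1RA and ira1, ordered by their log2 difference. Points are single arrays of the wild type (grey, 4), ira1 (orange, 2) and ira1RA (blue, 2). For GLK1 the 3 strains form separate ranges with the wild type on top, and for ADH4 the ira1RA arrays (2936 and 3178) stand above both other strains.

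The 3 genes called lower were RPS18B, RPL21B and YBR090C. RPS18B, a protein of the small ribosomal subunit, read 2027 and 1957 in ira1 and 1075 and 971 in ira1RA. It fell by 0.96 on the log2 scale (SE 0.14, adjusted p = 0.00442), with wild-type arrays (1438 to 1626) between the strains. RPL21B, a protein of the large subunit, read 7947 and 9515 in ira1 and 5104 and 4696 in ira1RA. It fell by 0.83 on the log2 scale (SE 0.16, adjusted p = 0.0385). YBR090C, an open reading frame that overlaps the chromatin protein gene NHP6B, read 1065 and 987 in ira1 and 463 and 589 in ira1RA (log2 -0.97 ± 0.19, adjusted p = 0.0445). The arrays could not say from which of the overlapping genes that signal came. The next 9 genes by p did not pass, and their adjusted p ran from 0.0515 to 0.0930. They were the ribosomal protein genes RPL40B, RPL3, RPL43B, RPL33B, RPL20B and RPS21A, the histone genes HHF1 and HTA1, and SUP45, a translation release factor.

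Ribosomal protein genes as a group sat lower in ira1RA than in ira1. Of 131 measured, 2 were called lower (1 after quantile normalization) and none higher, and the mean was lower in 129. The arrays did not overlap in 119 with ira1RA lower (16.9% of all genes) and in 1 with ira1RA higher (19.0% of all genes). The exception, named after its value was seen, was RPS9A, at 147 and 114 in ira1 and 223 and 148 in ira1RA. The median log2 difference was -0.48 (range -0.96 to 0.49), against 0.00 over all genes. Both subunits shared the shift: 48 of 55 small-subunit genes and 71 of 76 large-subunit genes had non-overlapping lower arrays, with medians of -0.48 and -0.47. The list median was 11.06 and 11.14 on the log2 intensity scale in the ira1 arrays, 10.69 and 10.55 in the ira1RA arrays, and 10.90 to 11.19 in the wild-type arrays. Both ira1RA arrays lay below all wild-type arrays for 67 of the 131 genes (9.53% of all genes). Both ira1 arrays lay above all wild-type arrays for 29 (6.78% of all genes). RPL3, a core protein of the large subunit, read 2940 and 3319 in ira1, 1747 and 1699 in ira1RA and 1900 to 2434 in the wild type (log2 -0.86 ± 0.18, adjusted p = 0.0571). RPL40B, which encodes a ribosomal protein fused to ubiquitin, read 2176 and 2000 in ira1, 1301 and 1052 in ira1RA and 1313 to 1714 in the wild type (log2 -0.83 ± 0.17, adjusted p = 0.0515). The size of the shift depended on how arrays were brought to one scale. After quantile normalization the median was -0.21, with 65 genes lower and 5 higher without overlap (19.7 and 18.1% of all genes). Copies A and B of a ribosomal protein gene are nearly identical, so their values are not independent.

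**Figure D3:**
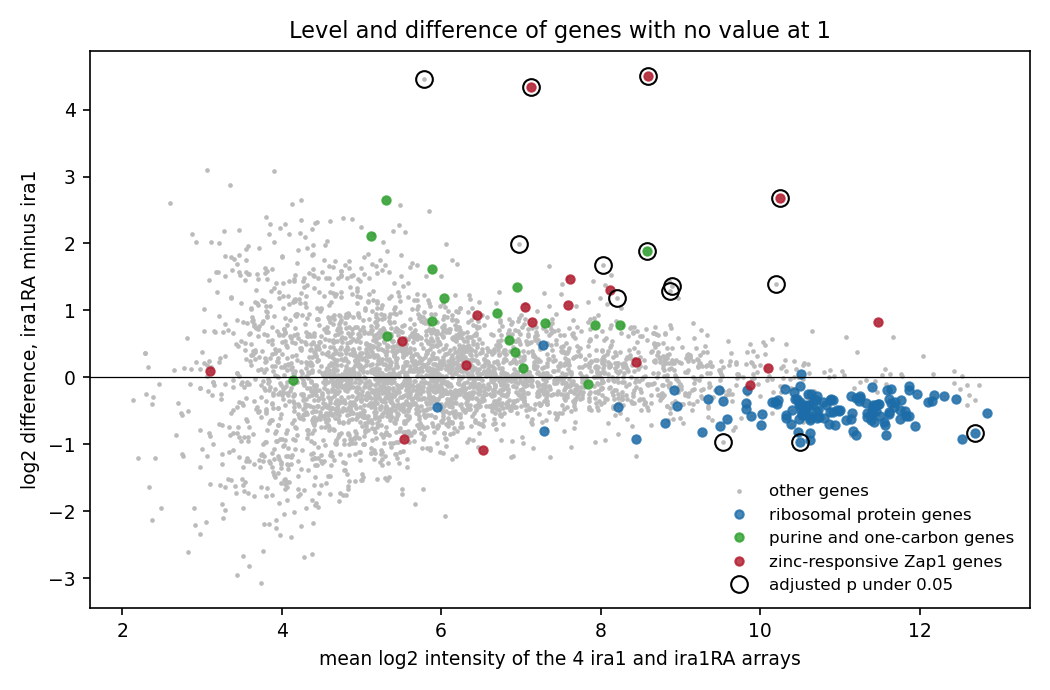
Log2 difference, ira1RA minus ira1, against mean log2 intensity of the 4 arrays, for the 3664 genes with no value at 1. Circles mark adjusted p under 0.05. Ribosomal protein genes (blue) lie around a median of -0.48, and purine and one-carbon genes (green) and zinc-responsive genes (red) lie mostly above 0.

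Genes of ribosome biogenesis, which make and process ribosomal RNA, had a median difference of -0.31. None of 35 passed, and 14 had non-overlapping arrays with ira1RA lower (16.9% of all genes) against 2 with ira1RA higher (19.0% of all genes). UTP20, part of the small-subunit processome, read 123 and 77 in ira1 and 30 and 23 in ira1RA (log2 -1.89 ± 0.50, adjusted p = 0.151). DBP2, an RNA helicase, read 276 and 248 in ira1 and 158 and 153 in ira1RA (log2 -0.75 ± 0.29, adjusted p = 0.382). YTM1, a 60S assembly factor, read 119 and 131 in ira1 and 56 and 66 in ira1RA. Without ira1RA array 2 the list median was smaller, at -0.082, and without ira1 array 1 it was -0.16.

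Of the 20 cyclin and cell cycle genes, a list that also holds some histone genes, none passed between ira1RA and ira1, and the median was -0.03, with 7 lower and 3 higher without overlap (16.9 and 19.0% of all genes). The members with the smallest p were the histone genes HHF1, HTA1 and HTB1 and the cyclin gene CLB1. HTA1, a histone H2A gene, read 1882 and 1556 in ira1, 1101 and 964 in ira1RA and 1757 to 2374 in the wild type. The difference between ira1RA and ira1 was -0.73 ± 0.17 on the log2 scale (adjusted p = 0.0787), while against the wild type HTA1 fell by 1.00 in ira1RA (adjusted p = 0.00393). HHF1, a histone H4 gene, read 1063 and 1036 in ira1, 615 and 595 in ira1RA and 968 to 1290 in the wild type (adjusted p = 0.0612 against ira1 and 0.0264 against the wild type). HTB1, a histone H2B gene, had an adjusted p of 0.364 against ira1 and 0.0471 against the wild type. CLB1, a mitotic cyclin, read 39 and 39 in ira1 and 78 and 75 in ira1RA (adjusted p = 0.413).

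Purine and one-carbon genes read higher in ira1RA. SHM2 was the only one of 17 to pass (2 did after quantile normalization), but 13 had non-overlapping arrays with ira1RA higher (19.0% of all genes) and none with ira1RA lower. The median log2 difference was 0.82, and 0.75 after quantile normalization. For 9 of the 17, both ira1 arrays lay below all wild-type arrays (9.98% of all genes), while the ira1RA arrays did so for 1 (9.53% of all genes). Among the 10 genes of purine nucleotide synthesis the median was 0.83, and 7 of them had ira1 below the wild type. ADE12, adenylosuccinate synthase, read 27 and 9 in ira1, 104 and 93 in ira1RA and 55 to 150 in the wild type. It was called lower in ira1 than in the wild type (log2 -2.59, adjusted p = 0.0152) and missed the threshold between ira1RA and ira1 (log2 2.66 ± 0.55, adjusted p = 0.0515). ADE13, the next enzyme of that branch, read 127 and 109 in ira1 and 212 and 203 in ira1RA (adjusted p = 0.315). GCV3, a subunit of glycine decarboxylase, read 191 and 270 in ira1, 359 and 428 in ira1RA and 446 to 550 in the wild type. GCV3 was lower in ira1 than in the wild type (log2 -1.07, adjusted p = 0.0339) and was not called between ira1RA and ira1 (adjusted p = 0.332).

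Genes of the TCA cycle and respiration also read higher in ira1RA, although none of 27 passed. The median log2 difference was 0.61, and 0.30 without ira1 array 2, with 14 genes higher and 4 lower without overlap (19.0 and 16.9% of all genes). The 14 enzymes of the cycle had a median of 0.74, with 9 higher and 1 lower without overlap, and the 12 genes of the respiratory chain and ATP synthase had a median of 0.34, with 5 higher and 2 lower. The list median was 7.27 and 7.34 in the ira1 arrays, 8.03 and 7.69 in the ira1RA arrays and 7.71 to 8.02 in the wild type (log2 intensity). Taken gene by gene, the median log2 difference from the wild type was -0.48 in ira1 and -0.33 in ira1RA. Both ira1 arrays lay below all wild-type arrays for 15 of the 27 genes (9.98% of all genes) and above them for none. Both ira1RA arrays lay below for 9 (9.53% of all genes) and above for 5 (7.30% of all genes). CIT1, mitochondrial citrate synthase, read 145 and 163 in ira1, 350 and 322 in ira1RA and 170 to 237 in the wild type (log2 1.13 ± 0.27, adjusted p = 0.0930). SDH2, a subunit of succinate dehydrogenase, read 49 and 39 in ira1, 109 and 81 in ira1RA and 113 to 215 in the wild type. SDH2 was called lower in ira1 than in the wild type (log2 -1.84, adjusted p = 0.0058), and its adjusted p between ira1RA and ira1 was 0.255. ATP1, a subunit of ATP synthase, read 215 and 211 in ira1 and 373 and 335 in ira1RA (adjusted p = 0.348). CYC1, the main cytochrome c, went the other way, at 542 and 567 in ira1, 395 and 374 in ira1RA and 650 to 708 in the wild type. CYC1 was lower in ira1RA than in the wild type (log2 -0.80, adjusted p = 0.0316) and was not called against ira1 (adjusted p = 0.301).

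Hexose transporters and glucose sensors had a median difference of 0.52, with 9 of 15 higher and none lower without overlap (19.0 and 16.9% of all genes), and none passed. The median was 0.38 without ira1 array 1 and 0.81 without ira1RA array 2. HXT6, a high-affinity transporter, read 300 and 328 in ira1, 620 and 449 in ira1RA and 755 to 828 in the wild type. It was called lower in ira1 than in the wild type (log2 -1.33, adjusted p = 0.00133) and gave an adjusted p of 0.151 between ira1RA and ira1. The nearly identical HXT7 showed the same order, at 271 and 362 in ira1, 544 and 390 in ira1RA and 547 to 723 in the wild type. HXT3, a low-affinity transporter, read 791 and 772 in ira1, 1349 and 908 in ira1RA and 1263 to 1469 in the wild type, and was also called lower in ira1 than in the wild type (log2 -0.79, adjusted p = 0.02). RGT2, a glucose sensor of the plasma membrane, read 43 and 11 in ira1 and 88 and 109 in ira1RA (adjusted p = 0.198). For all 5 transporters with both ira1 arrays below the wild type (HXT1, HXT2, HXT3, HXT6 and HXT7, of 9 measured), the ira1RA arrays lay between or overlapped. Over all genes, both ira1 arrays lay below the wild type in 9.98%. These 5 transporters were picked by their low ira1 level, so the place of ira1RA is partly set by that choice. Both ira1RA arrays lay below all wild-type arrays for 3 of the 9 transporters (9.53% of all genes).

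Of 24 glycolysis and fermentation genes, ADH4, ENO1 and TDH1 rose and none was called lower. The median was 0.12, and 0.036 without ira1 array 1, with 11 genes higher and 6 lower without overlap (19.0 and 16.9% of all genes). After quantile normalization these counts were 17 and 2 (18.1 and 19.7% of all genes), with a median of 0.28. ADH1, the main fermentative alcohol dehydrogenase, read 2841 and 3169 in ira1, 1573 and 1737 in ira1RA and 2073 to 2858 in the wild type (log2 -0.86 ± 0.21, adjusted p = 0.0999). Thus ADH1 and ADH4 differed in opposite directions, and only ADH4 passed.

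Zinc-responsive genes were gathered into a list after YOR387C, VEL1 and ADH4 had been seen among the called genes, so their count is a description and supports nothing. Of 19 measured, those 3 were called higher (4 after quantile normalization) and none lower, 11 had non-overlapping arrays with ira1RA higher and 2 with ira1RA lower (19.0 and 16.9% of all genes), and the median was 0.83. ZPS1, a zinc-regulated cell surface protein, read 2074 and 2184 in ira1, 4365 and 3233 in ira1RA and 2159 to 2729 in the wild type (log2 0.82 ± 0.18, adjusted p = 0.0571). The zinc transporters did not share 1 direction, and they are named here after their values were seen. ZRT1, the high-affinity transporter of the plasma membrane, read 1148 and 935 in ira1 and 1149 and 1130 in ira1RA. ZRT2, the low-affinity transporter, read 149 and 119 in ira1 and 69 and 57 in ira1RA (adjusted p = 0.214). ZRT3, which releases zinc from the vacuole, read 181 and 171 in ira1 and 462 and 405 in ira1RA (adjusted p = 0.118). ZAP1, the activator of these genes, was at 1 in 3 of the 4 arrays and at 5 in the other.

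Iron regulon genes had a median difference of 0.40, and none of 17 passed, with 9 higher and 1 lower without overlap (19.0 and 16.9% of all genes). SIT1, a siderophore transporter, read 38 and 38 in ira1, 140 and 117 in ira1RA and 64 to 127 in the wild type (log2 1.75 ± 0.43, adjusted p = 0.0976). FET3, the iron oxidase, read 170 and 105 in ira1 and 261 and 177 in ira1RA (adjusted p = 0.461).

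Of 27 Msn2 and Msn4 target genes, GLK1 was the only one to pass. In this list 4 read higher and 5 lower without overlap (19.0 and 16.9% of all genes), and the median was 0.13, or -0.11 to 0.25 when 1 array was left out. UBI4, polyubiquitin, read 100 and 130 in ira1, 316 and 322 in ira1RA and 148 to 212 in the wild type (log2 1.48 ± 0.41, adjusted p = 0.167). HOR7, a hyperosmotic response gene, read 1422 and 1454 in ira1, 1357 and 1184 in ira1RA and 1725 to 2294 in the wild type, so both strains lay below the wild type (log2 -0.45 for ira1, adjusted p = 0.151, and -0.63 for ira1RA, adjusted p = 0.0561). Trehalose and glycogen genes had a median of 0.07, and 0.48 without ira1 array 1, with none of 20 called. Without overlap, 3 of them were higher and 1 lower (19.0 and 16.9% of all genes). TPS1, trehalose-6-phosphate synthase, read 63 and 42 in ira1, 93 and 94 in ira1RA and 120 to 192 in the wild type. TPS1 was called lower in ira1 than in the wild type (log2 -1.54, adjusted p = 0.0357), and the difference between ira1RA and ira1 was 0.86 ± 0.40 (adjusted p = 0.504). Heat shock chaperones had a median of -0.13, and 0.034 without ira1RA array 2, and none of 22 passed. Of these chaperone genes, 1 was higher and 6 were lower without overlap (19.0 and 16.9% of all genes). SSA2, a cytosolic Hsp70, read 1842 and 2090 in ira1 and 1505 and 1491 in ira1RA, with the wild type at 1337 to 1510 (adjusted p = 0.477).

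In the Ras and adenylate cyclase module IRA1 itself was the only one of 18 genes to pass, and none did after quantile normalization. The median was 0.22, and 0.47 without ira1RA array 2, with 6 genes higher and 3 lower without overlap (19.0 and 16.9% of all genes). CDC25, the exchange factor that loads Ras with GTP, read 59 and 65 in ira1 and 46 and 46 in ira1RA (adjusted p = 0.895). PDE2, the high-affinity cAMP phosphodiesterase, read 62 and 34 in ira1 and 91 and 73 in ira1RA (adjusted p = 0.855). SRV2, an adenylate cyclase-associated protein, read 52 and 57 in ira1 and 90 and 98 in ira1RA (adjusted p = 0.718). None of the 12 genes for subunits of protein kinase A, related kinases and stress activators passed (median 0.04, and 0.20 without ira1 array 1 or 0.23 without ira1RA array 2). In that list 3 were higher and 1 lower without overlap (19.0 and 16.9% of all genes). Among them MSN4 read 36 and 31 in ira1 and 81 and 77 in ira1RA, and HSF1, the heat shock factor, read 61 and 32 in ira1 and 25 and 7 in ira1RA (adjusted p = 0.699 and 0.526). No gene of the Ras and adenylate cyclase module read above 98 in these 4 arrays.

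FLO11, the flocculin needed for filament formation and adhesion, read 177 and 150 in ira1, 411 and 436 in ira1RA and 46 to 93 in the wild type. The 3 ranges did not overlap. FLO11 was called higher in ira1RA than in the wild type (log2 2.79, adjusted p = 0.00115), was not called in ira1 against the wild type (log2 1.41, adjusted p = 0.0588), and was not called between ira1RA and ira1 (log2 1.38 ± 0.40, adjusted p = 0.207). The ira2 arrays read 369 and 680. FLO5 read 45 and 38 in ira1 and 42 and 41 in ira1RA, and none of 5 flocculins passed. None of the 17 genes of the filamentation kinase cascade and its targets passed, and 6 were higher and none lower without overlap (19.0 and 16.9% of all genes). Their median was 0.00, but 0.32 without ira1 array 1 and 0.61 without ira1RA array 2. None of the 14 filamentation transcription factors passed, and 2 were higher and 2 lower without overlap (19.0 and 16.9% of all genes). The median of these factors was 0.44, and -0.057 without ira1 array 2, and 10 of the 14 had a value at 1 in the 4 arrays compared. TEC1, the factor of filamentation genes, read 43 and 13 in ira1, 66 and 107 in ira1RA and 29 to 62 in the wild type (log2 1.83 ± 0.81, adjusted p = 0.465). TEC1 belongs to the list of the cascade and its targets, whose next members by p went both ways. STE11 read 58 and 20 in ira1 and 26 and 4 in ira1RA (log2 -1.74 ± 1.09, adjusted p = 0.707). The difference was 0.40 for SVS1 (adjusted p = 0.914) and -0.72 for MSB2 (adjusted p = 0.918).

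Set against the wild type, ira1 had 5 genes called higher (0.0899%) and 71 lower (1.28%), and ira1RA had 12 higher (0.216%) and 13 lower (0.234%). These contrasts share the 4 wild-type arrays and are given side by side. Arrays did not overlap with the wild type for 377 genes higher (6.78%) and 555 lower (9.98%) in ira1, and for 406 higher (7.30%) and 530 lower (9.53%) in ira1RA. Because wild-type arrays 3 and 4 read URA3 far under arrays 1 and 2, the counts were repeated without them. They were then 24 higher and 69 lower for ira1 and 17 higher and 10 lower for ira1RA. The wild-type ranges and calls given above for single genes use all 4 wild-type arrays. These pairs also differed in the share of probes at 1, which was 23.1 and 21.7% in arrays 1 and 2. It was 9.03 and 11% in arrays 3 and 4. The ira1 and ira1RA strains also differ from the wild type in their HIS3 and LEU2 disruptions and alleles, and this cannot be told apart from the ira1 deletion in these contrasts. The direct comparison of ira1RA with ira1 does not carry that difference.

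**Figure D4:**
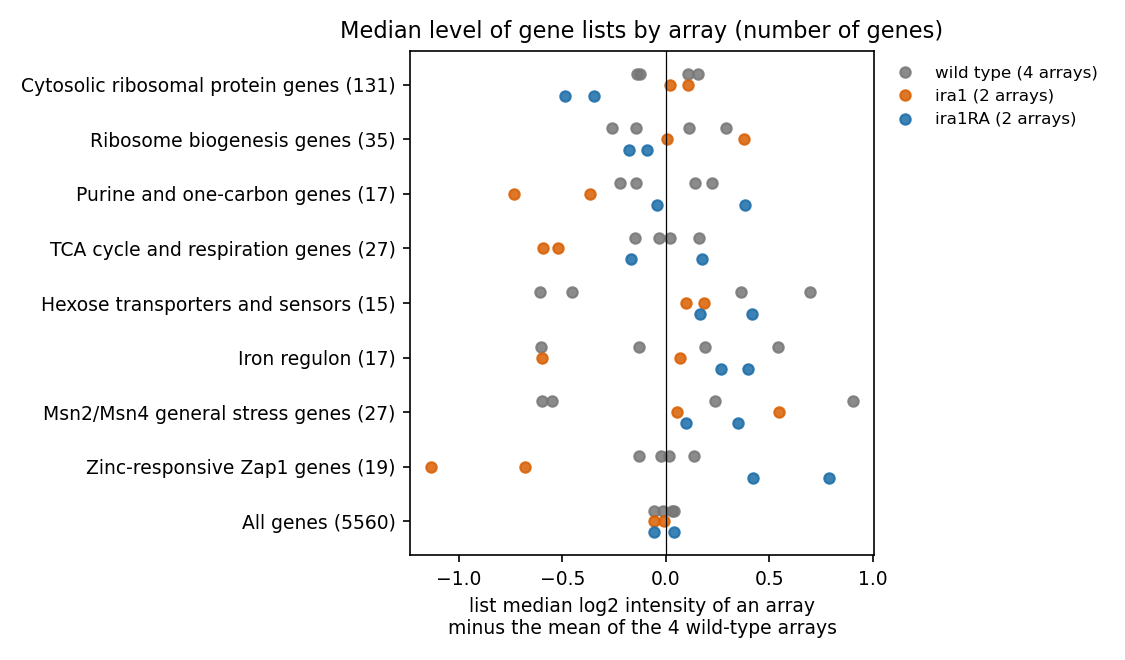
Median log2 intensity of 8 gene lists and of all genes in each array, minus the mean of the 4 wild-type arrays (horizontal axis, log2 units). Grey, orange and blue points are wild-type, ira1 and ira1RA arrays. Ribosomal protein genes are lowest in ira1RA, and the purine, TCA cycle and zinc lists are lowest in ira1.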

How the data were processed

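Total RNA from cells in SC medium was hybridised to Affymetrix arrays, per the labels' protocols. The deposited intensity values are linear, whole and between 1 and 16048, and the steps by which the authors obtained them are not given in the sources used. Of 6178 probes, 5595 pointed to 1 gene in the array annotation (583 to none), with symbols from RefSeq. For 34 genes with several probes the brightest was used. Each array was multiplied by a factor (0.96 to 1.03) that made the medians equal, the 10th percentile of all values (0.993) served as a floor, and the analysis used log2 values. limma 3.58.1 in R 4.3.3 fitted the means of all 10 groups of the 20 SC arrays (residual degrees of freedom 10, eBayes with trend and robust). Tests are two-sided, adjusted over 5560 genes by Benjamini-Hochberg, and a gene was called at an adjusted p under 0.05. With 2 arrays a strain, precision is low. The calls were tested on simulated data, but the outcome is not reported here and lends the calls no support. The ± values are SE from the fit.

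The strains compared, the members and the gene lists were chosen with earlier results of these data known. Lists got no test. Named were IRA1, IRA2 and the marker genes; the 12 genes each way with the largest change among those called with non-overlapping arrays and no value at 1, filled by the smallest p; called genes with a value at 1, without a fold; and up to 4 members of each list with the smallest p. Values at 1 have no order among themselves. The arrays of the other medium were not used. Same-numbered ira1 and ira1RA arrays did not deviate together (residual correlation 0.061), so numbers were not taken as pairs. Alternatives were quantile normalization, no scaling, a higher floor, filters on dim genes, the mean of the probes, other sets of arrays, eBayes without trend, a block and leaving out each array; sets without wild-type or RAS2A22 arrays were chosen after seeing the data.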

Additional observations from a re-analysis of the deposited data

Results flagged for a closer look

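Among the wild-type arrays, 7 of the 113 named genes had 1 array far from the other 3, by the gap to the nearest array over the range (Dixon's test at its 95% critical value). For like and independent arrays, chance gives about 1 such gene in 20. Wild-type arrays 1 and 2 stood apart from arrays 3 and 4, so that rate may not hold here. The number was therefore not judged against chance. VEL1 read 175 in array 2 against 35 to 44 in the others. ADH1 read 2073 in array 2 against 2783 to 2858. YTM1 read 28 in array 2 against 72 to 85, and HSF1 read 48 there against 23 to 26. MET6, methionine synthase, read 427 in array 1 against 813 to 966, and VTC3, a polyphosphate polymerase subunit, read 14 in array 1 against 33 to 36. YAK1, a kinase that opposes protein kinase A, read 1 in array 3 against 21 to 25. Groups of 2 arrays, ira1 and ira1RA among them, could not be examined in this way.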

How the results depend on the processing

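The main counts, 12 higher and 3 lower, kept within 1.5 times under quantile normalization (13 and 3), a floor at the 25th percentile (14 and 3) and the mean of the probes (12 and 3). Values as deposited gave 16 and 7. With fewer genes tested, 22 and 10 passed among 4170 genes of mean level above the 25th percentile, and 21 and 8 among 3664 genes with no value at 1. With only the 4 arrays compared, 1 and 0 passed. eBayes without trend and robust gave 5 and 2, and with the replicate block 7 and 1 passed. Leaving out 1 array gave 6 to 64 higher and 1 to 29 lower. After seeing the data, 33 and 14 were found without the wild-type arrays, 7 and 1 without the RAS2A22 arrays, and 7 and 0 with only the ira1, ira1RA, ira2 and RAS2V19 arrays. The fit with only the 4 arrays compared had 5560 genes, and its residual degrees of freedom are fewer by construction; the causes of the other changes were not tested. Of the alternatives for the 15 called genes, 156 kept the call, 83 lost it and none turned the direction. IRA1 (log2 3.79) lost the call under quantile normalization (3.30, adjusted p = 0.0856), with the higher floor (1.98, 0.114), without trend (3.79, 0.0510), under the replicate block (3.79, 0.0502), with only the 4 arrays (3.79, 0.587), without the RAS2A22 arrays (3.79, 0.0764) and with only the ira1, ira1RA, ira2 and RAS2V19 arrays (3.79, 0.369). Leaving out 1 array gave IRA1 2.66 to 4.93. These fitted IRA1 differences are set by the floor and are neither a fold nor a bound. The ribosomal protein median was -0.21 after quantile normalization, and the ribosome biogenesis median ran from -0.37 to -0.082 when 1 array was left out. Against the wild type, quantile normalization gave 16 higher in ira1 and 7 lower in ira1RA, the higher floor 12 higher in ira1 and 21 lower in ira1RA, and the fit without trend 0 higher and 13 lower in ira1 and 2 and 2 in ira1RA. Without wild-type arrays 3 and 4, 24 were higher in ira1. The uncalled genes whose difference changed sign were HOR7 (0.015), MDH3 (-0.055) and ACS1 (-0.28) under quantile normalization and ACS1 (-0.42) with the higher floor. Leaving out 1 array moved across 0 the differences of URA3 (-0.18 to 0.053), YAP1 (-0.028 to 3.05), UGP1 (-0.10 to 0.75), MSB2 (-1.77 to 0.34), PHO11 (-0.87 to 1.87), ERF2 (-0.22 to 2.64), CIN5 (-0.10 to 2.17), FLO5 (-0.092 to 0.10), ACS1 (-2.20 to 2.68), MF(ALPHA)1 (-0.98 to 0.31), STE4 (-0.19 to 2.42) and MDH3 (-0.048 to 0.14).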

Other observations

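None of the genes in the following lists was called between ira1RA and ira1. Over all genes, the arrays did not overlap for 19.0% with ira1RA higher and for 16.9% with ira1RA lower. Of 32 amino acid biosynthesis genes, 15 were higher and 6 lower without overlap (median 0.20), and ILV1, threonine deaminase, read 100 and 153 in ira1 and 212 and 190 in ira1RA (adjusted p = 0.435). Nitrogen catabolite repressed genes had 9 of 23 higher and 2 lower (median 0.32), and MEP2, an ammonium transporter, read 14 and 10 in ira1 and 66 and 58 in ira1RA (adjusted p = 0.586). Phosphate regulon genes had 6 of 16 higher and none lower (median 0.45). Among 10 pyrimidine genes, 4 were higher and 3 lower (median 0.21). Of the CTP synthase genes there, URA7 read 468 and 388 in ira1 and 270 and 247 in ira1RA, while URA8 read 53 and 63 in ira1 and 122 and 114 in ira1RA (adjusted p = 0.153 and 0.34).

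Sulfate and methionine genes had 7 of 20 higher and 3 lower without overlap (median 0.16). Of 15 genes of the glyoxylate cycle and gluconeogenesis, 2 were higher and 2 lower (median 0.05), and MDH2, cytosolic malate dehydrogenase, read 68 and 24 in ira1, 122 and 139 in ira1RA and 115 to 284 in the wild type. Cell wall and daughter separation genes had 6 of 23 higher and 3 lower (median 0.04), and SED1, a cell wall protein, read 2551 and 2674 in ira1 and 3711 and 4223 in ira1RA (adjusted p = 0.602). Among genes specific to a or alpha cells 1 of 9 was higher (SAG1, at 21 and 18 in ira1 and 37 and 61 in ira1RA), and among 10 haploid-specific genes none was. Their medians, at intensities near the floor, had no stable direction. For the 9 genes the median was 0.75, but -0.025 without ira1 array 1 or without ira1RA array 1. For the 10 genes it was 0.56, but 0.025 without ira1RA array 2 and -0.24 over genes with no value at 1.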
